A study of Mus musculus with 2 samples.

Results

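The endothelin and renin-angiotensin systems were followed through 9 genes in mouse cavernous pericytes kept in normal or high glucose: the peptide precursors Edn1, Edn3 and Agt, the processing enzymes Ece1 and Ace, and the receptors Ednra, Ednrb, Agtr1a and Agtr2. The genes were chosen by name, and their probes by the RefSeq accession printed for each spot, which gave 10 probes on 19 spots among 27496 probes naming 20879 genes. Pericytes are the mural cells of small vessels. Those used here were primary cells of the penile cavernous tissue of C57BL/6 mice, and in both groups the medium was DMEM with fetal bovine serum, antibiotics (penicillin and streptomycin) and human pigment epithelium-derived factor (PEDF). Cells of the normal glucose group were held at 5 mmol glucose and those of the high glucose group at 30 mmol, each for 72 h; the labels state no volume for these amounts, the age of the mice is not given in the sources used here, and an osmotic control is not analysed here. RNA of 3 samples per condition was pooled and hybridised to 1 Agilent 1-colour array, so there is no replicate spread between cultures, no test was run across genes, and every difference is one between these 2 pools.

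Endothelins are short peptides cut from a precursor by endothelin-converting enzyme, and they constrict vessels through the type A receptor on mural cells; the type B receptor also clears the peptide and, on endothelium, triggers nitric oxide release. In the renin-angiotensin system, renin cuts angiotensinogen to angiotensin I and angiotensin-converting enzyme trims this to angiotensin II, which constricts vessels through the type 1 receptor, while the type 2 receptor is known to oppose many of its actions. Both systems act in the erectile tissue of the penis, where mural cell tone controls blood filling.

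Of the 9 genes, 7 were well above background on both arrays (Edn1, Ece1, Ace, Ednra, Ednrb, Agtr1a and Agtr2), against 67.9% of all 20879 named genes. None of these 7 differed by 2-fold between the pools, where 0.903% of the 14171 genes measured on both arrays did, and none by 1.5-fold, where 2.78% did. Agt was well above background in high glucose only, as were 2.45% of named genes, and Edn3 on neither array. High over normal glucose, the log2 ratio ran from -0.32 for Ace to 0.24 for Agtr2, with a median of -0.08 over the 7 genes and of -0.0069 over all measured genes. Of the 7 genes, 2 were higher and 5 lower in high glucose. The split was 1 and 6 if the median of each array was subtracted in place of the percentile. This also turned the split of all measured genes from 6659 higher and 7512 lower to 3870 and 10301. Quantile normalization and median pixels likewise gave 1 and 6 for the members. With the percentile taken over probes well above background, 3 members were higher and 4 lower, against 7185 and 6986 of all measured genes. In such pooled cultures, fewer cells of a type and less RNA per cell cannot be told apart. The ratios are those of processed signals after each array's 75th percentile was subtracted on the log2 scale.

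**Figure D1:**
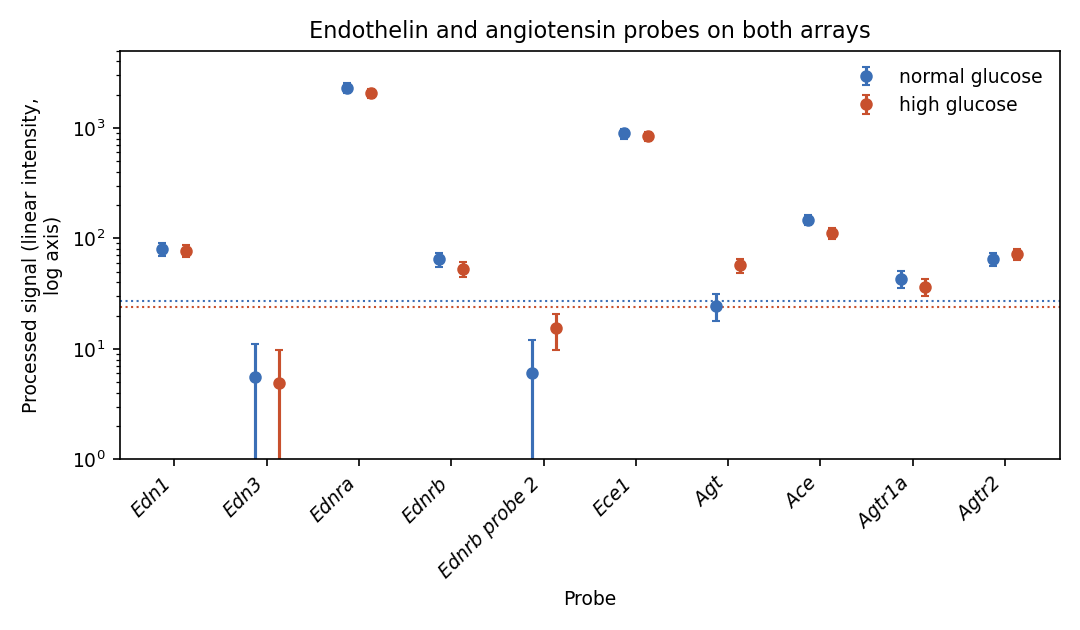
Processed signal (linear intensity on a log axis) of the 10 probes on the normal glucose (blue) and high glucose (red) array; bars are the error the scanner software gives for a spot (for Edn1 the mean over its 10 spots), cut where they reach the lower axis, and dotted lines mark the lowest detected gene spot, 26.9 in normal and 24.0 in high glucose. The points of each pair lie close together except for Agt and the second Ednrb probe, both below the blue dotted line in normal glucose. In high glucose Agt lies above the red dotted line and the second Ednrb probe below it.

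Error within an array was read from 283 detected probes that are printed 10 times. Repeat spots of a probe differed in log2 ratio by a median SD of 0.30 where the signal was under 64, 0.16 between 64 and 128, 0.093 between 128 and 512, 0.044 between 512 and 4096 and 0.032 for brighter probes. Genes differed from one another by more than this: over all measured genes the SD of the log2 ratio was 0.39, 0.44, 0.30, 0.16 and 0.12 in the same bands. Control spots gave the background. Among 308 negative control spots, 7 in normal and 8 in high glucose were called detected (well above background), and all of them carried an outlier flag; unflagged ones reached 7.01 and 6.24. Of 350 spots for an external control RNA (E1A) 11 and 19 were called so, 1 and 4 of them unflagged, and unflagged ones reached 35.1 and 31.7. The outlier flag based on repeat spots was set for 0 of 55249 gene probes printed once, so a single disturbed spot of a gene would not be caught by it.

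Edn1, which encodes the precursor of endothelin 1, did not differ between the pools beyond the spread of its own spots. It is one of the probes printed 10 times, so it is the best measured of the dim members. Its processed signal ran from 69.3 to 90.6 in normal glucose, with a median of 80.1, and from 65.5 to 86.4 in high glucose, with a median of 78.5. The 2 sets of spots overlapped over nearly their whole range. Their means were 80.0 ± 6.17 and 77.4 ± 6.38 (SD, n = 10 spots of 1 array). Set against each other at the same array position, 5 spots were higher and 5 lower in high glucose, and the log2 ratio was 0.03 ± 0.16 (SD over the 10 spots). All 20 readings lay above every unflagged negative control and E1A spot. The sign of this ratio turned under 3 of 10 alternative settings, within -0.03 and 0.04, and several of the 10 cannot change it.

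**Figure D2:**
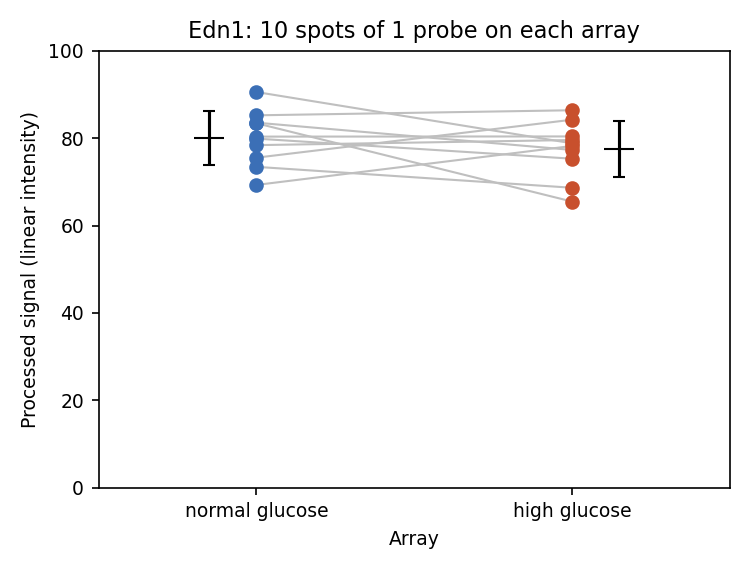
Processed signal (linear intensity) of the 10 Edn1 spots on each array, with grey lines joining the same array position and black bars giving the mean and SD over spots. The spots overlap between the arrays, at 80.0 ± 6.17 in normal and 77.4 ± 6.38 in high glucose.

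Edn3, the precursor of endothelin 3, which acts mainly through the type B receptor, was detected on neither array. Its single spot read 5.52 in normal and 4.92 in high glucose, each smaller than the error the software gives for it, 5.54 and 4.93. Both readings are at the level of the negative control spots, whose medians were 6.04 and 5.37, and no ratio is given.

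Agt, which encodes angiotensinogen, the source of all angiotensin peptides, was the member that differed most. Its spot read 24.6 in normal glucose, with a software error of 6.86 and not well above background, and 57.0 in high glucose, with an error of 8.01. The normal glucose reading lies within the range of the unflagged E1A control spots and the high glucose reading lies above all of them. A floor was set at the lowest gene spot well above background in normal glucose, 26.9. Against it the high glucose reading of Agt was 2.25-fold higher by processed signal after scaling, called its bound here. The bound takes no account of the software error, and unflagged E1A spots in normal glucose reached 35.1, above the floor. A bound of 2-fold or more in that direction was found for 156 named genes (0.747%). Only the 512 genes well above background in high glucose alone could have one. The measured values gave a log2 ratio of 1.30. The median pixels of the same spots, less local background, gave 0.76, and normexp, a model-based background correction of these pixels, gave 0.38. Both are smaller than the bound on the same scale, which is thus given for the processed signal alone. The 10 dim neighbouring spots were shifted by 0.18 on the log2 scale in the same direction, and the part of this shift in the result was not tested. Such shifts come from pixels without background subtraction, so they are not on the scale of the ratios above. Agt has 1 named probe printed once, so there is no second reading.

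The enzymes that activate the peptides were both measured. Ece1, endothelin-converting enzyme 1, read 892 in normal and 843 in high glucose, a log2 ratio of -0.00068 after scaling. In its signal band repeat spots had an SD of 0.044, so the pools were not distinguishable at this precision, and with median centring the ratio was -0.06. Ace, angiotensin-converting enzyme, which makes angiotensin II and also breaks down bradykinin, read 148 in normal and 111 in high glucose, with software errors of 15.9 and 12.3. This is 1.25-fold lower in high glucose, a log2 ratio of -0.32, and the median pixels gave -0.29. Ace was the lowest of the 7 measured members. Its ratio exceeded the SD of repeat spots in its band, 0.093, but lay close to the SD over all measured genes there, 0.30. Its high glucose reading fell below 128, the lower edge of that band, and in the band beneath these SDs were 0.16 and 0.44. The Ace ratio was below 0 under all 10 alternative settings, between -0.39 and -0.19. Several of these settings cannot change the ratio of a gene with 1 measured probe, so this count says little about stability. Quantile normalization gave -0.34, median pixels -0.29 and normexp -0.19.

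Ednra, the endothelin type A receptor that carries the constrictor signal in mural cells, read 2304 in normal and 2065 in high glucose. The log2 ratio was -0.08, larger than the SD of repeat spots in its band, 0.044, and smaller than the SD over all measured genes there, 0.16. The 11 dim neighbouring spots were shifted by -0.11 in the same direction, and the part of this shift in the result was not tested. The ratio stayed below 0 under all 10 alternatives, from -0.14 to -0.07, though several of these cannot change it. Ednra was thus 1.06-fold lower in high glucose, the smallest difference after Ece1 and Edn1.

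Ednrb, the type B receptor, was read by a pair of probes that disagreed. The brighter probe read 64.7 in normal and 52.8 in high glucose and was well above background on both arrays. Its log2 ratio of -0.21 is within the SD of repeat spots of that signal, 0.30. The normal glucose reading lay just above 64, the upper edge of that band, and in the next band the SD was 0.16. The second probe, assigned to the same transcript, read 6.01 in normal and 15.3 in high glucose and was well above background on neither array, though it passed the looser flag for a positive and significant signal in high glucose; no fold is given for it. The gene is represented here by the brighter probe.

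The angiotensin receptors were dim. Agtr1a, the main type 1 receptor of rodents, read 43.3 in normal and 36.5 in high glucose, a log2 ratio of -0.17 where repeat spots of that signal vary by 0.30. Agtr2, the type 2 receptor, abundant in fetal tissue and scarce in most adult tissue, read 64.5 and 71.9, a log2 ratio of 0.24 where repeat spots vary by 0.16 and genes by 0.44. Its normal glucose reading lay just above 64, the lower edge of that band, beneath which repeat spots vary by 0.30. Both spots were above all unflagged negative control and E1A spots of their array. Their ratios pointed in opposite directions under all 10 alternatives, though several of these cannot change them. The ranges were -0.28 to -0.08 for Agtr1a and 0.12 to 0.25 for Agtr2. Neither ratio is large for spots this dim: of the 2110 genes with a mean signal below 128, 11.5% differed by at least 1.5-fold.

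**Figure D3:**
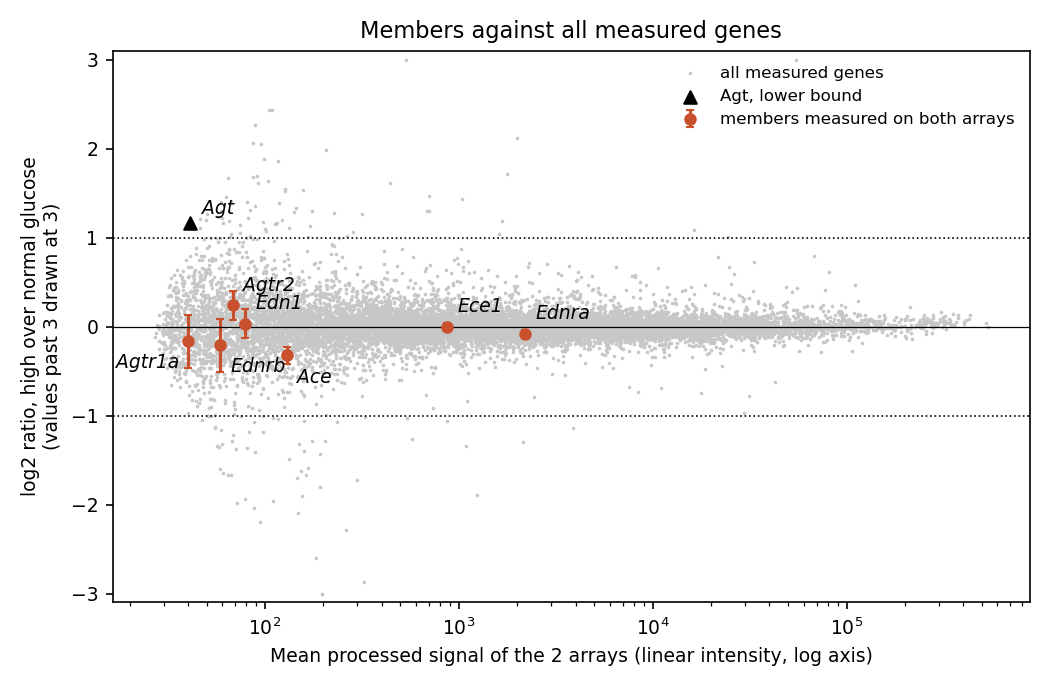
Ratio (log2, high over normal glucose) against the mean processed signal of both arrays (log axis). All 14171 measured genes are grey and the 7 measured members red, with bars giving the SD of repeat spots in the signal band. The triangle is the bound for Agt over the lowest detected gene spot in normal glucose, without the software error. Dotted lines mark 2-fold. The members lie inside the grey cloud at their signal, between -0.32 and 0.24, and only the Agt bound lies past the line.

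The remaining genes of the endothelin pathway showed one large reading that its own second probe did not share. Of 6 genes, 3 were measured: Ece2, Ecel1 and Mme. By their brightest probes all 3 were higher in high glucose, with a median log2 ratio of 0.48, and 2 were higher and 1 lower with median centring, from median pixels and with normexp; by the other Mme probe the split is also 2 and 1 and the median is that of Ecel1, 0.05. Edn2, Kel and Mmel1 were well above background on neither array. Mme, neprilysin, a membrane peptidase that degrades endothelins, natriuretic peptides and bradykinin, read 139 in normal and 318 in high glucose by its brighter probe, 2.43-fold higher, a log2 ratio of 1.28. Its other probe read 226 and 155, a log2 ratio of -0.46. In normal glucose this other probe was the brighter, so the choice of probe rests on the high glucose reading. Both probes were well above background on both arrays, and their dim neighbours were shifted by -0.05 and -0.11. The median pixels gave 1.28 and -0.54, so the direction for Mme is not settled by these arrays. Ece2, a second converting enzyme, read 106 and 140, a log2 ratio of 0.48 (1 spot); it was chosen after its values were seen.

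Among 19 further renin-angiotensin genes, 11 were measured on both arrays and none differed by 1.5-fold; 3 were higher and 8 lower, with a median log2 ratio of -0.13. With median centring none of the 11 was higher, where 3870 of all 14171 measured genes were. From median pixels and with the median over probes, 4 were higher and 7 lower. The medians there were -0.10 and -0.06. The largest differences were in Enpep, aminopeptidase A, which turns angiotensin II into angiotensin III, and in Thop1, thimet oligopeptidase, which can form angiotensin 1-7. Enpep read 71.4 in normal and 55.8 in high glucose, a log2 ratio of -0.27, and Thop1 1795 and 1472, a log2 ratio of -0.21. Thop1 is bright, and repeat spots of its band vary by 0.044. Atp6ap2, the prorenin receptor, which is also an accessory subunit of the proton pump, read 21626 and 18231, a log2 ratio of -0.17, and Agtrap, which promotes uptake of the type 1 receptor, read 1230 and 1204, a log2 ratio of 0.05; both were chosen after their values were seen.

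Ren1, renin, the enzyme that acts on angiotensinogen, resembled Agt in being well above background in high glucose only. It read 20.6 in normal and 55.0 in high glucose, with software errors of 6.65 and 7.77. Its bound against the same floor was 2.16-fold by processed signal, again without the software error. The measured values gave a log2 ratio of 1.495, the median pixels 1.00 and normexp 0.46, both smaller than that bound on the same scale, and its dim neighbours were shifted by 0.07. Agt and Ren1 thus each rest on 1 dim spot per array. Genes of this list that were well above background on neither array included the second type 1 receptor Agtr1b, Mas1 and Mrgprd, receptors linked to the counteracting branch, and Cma1, Ctsg and Cpa3, peptidases of mast cells and neutrophils. Agtr1b and Agtr1a are close copies, and whether a probe tells them apart was not checked, since probe sequences are not used here; the Agtr1b spot read 5.49 and 4.89.

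Aldosterone-related genes were sparsely measured, with 3 of 6 above background. Cyp11b1, an adrenal steroid hydroxylase, read 165 in normal and 183 in high glucose, a log2 ratio of 0.24, beside dim neighbours shifted by 0.33 in the same direction, whose part in the result was not tested. Sgk1, a kinase induced by corticosteroids, read 60558 and 60805, a log2 ratio of 0.09. The third was Hsd11b1, chosen after its values were seen, with a log2 ratio of -0.02 ± 0.03 (SD, n = 10 spots, including 1 with an outlier flag). Nr3c2, the mineralocorticoid receptor, Cyp11b2 and Hsd11b2 were not well above background.

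Downstream of the receptors, the G proteins, phospholipases, inositol trisphosphate receptors, protein kinases C and arrestins differed little. Of 23 genes 22 were measured, 11 higher and 11 lower, with a median log2 ratio of -0.00031 and none past 1.5-fold; with median centring 6 were higher and 16 lower. The largest ratios were those of Prkce, a protein kinase C isoform, at 0.28, from dim readings of 48.0 and 55.2, and of Arrb2, which ends receptor signalling, at 0.19, from 188 and 202.

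Other receptors through which mural cells contract gave a like picture. Of 19 genes 17 were measured, 7 higher and 10 lower, with a median of -0.01 and none past 1.5-fold by its brightest probe. Npy1r, a neuropeptide Y receptor, read 2988 in normal and 3338 in high glucose, a log2 ratio of 0.24, and Ptgfr, the prostaglandin F receptor, read 170 and 189, a log2 ratio of 0.23. Adra1a and Bdkrb1 were well above background on neither array. The probes of Hrh1, a histamine receptor singled out after its values were seen, disagreed. The brightest read 120 in normal and 114 in high glucose, a log2 ratio of 0.01. Another read 22.1 and 118 and was well above background in high glucose only. Its bound was 4.66-fold by processed signal, with a smaller log2 ratio of 1.90 from its median pixels. The remaining one read 13.0 and 5.26, detected on neither array.

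Genes that endothelin 1 and angiotensin II are known to induce in vascular cells were next read as a list of 12, of which 11 were measured, 5 higher and 6 lower, with a median of -0.02 and none past 1.5-fold. Ccl2, a chemokine that attracts monocytes, had the largest ratio. Its 10 spots ran from 26530 to 29953 in normal and from 31915 to 35153 in high glucose and did not overlap. The log2 ratio was 0.32 ± 0.05 (SD over 10 spots) and was above 0 at all 10 positions. Klf5, a transcription factor of smooth muscle growth, read 800 and 684, a log2 ratio of -0.15. The remaining gene, Nox1, an NADPH oxidase, was well above background in high glucose only, at 35.8 against 16.9, with a bound of 1.41-fold by processed signal. Normexp gave a log2 ratio of 0.37 for this probe, smaller than that bound on the same scale, and the second Nox1 probe read 6.37 and 5.74 and was detected on neither array.

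**Figure D4:**
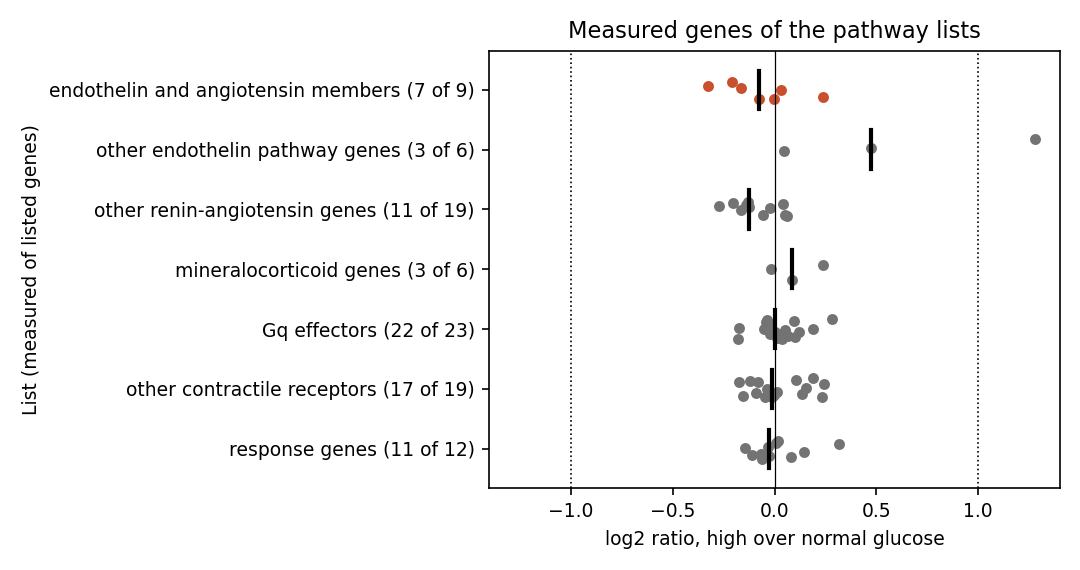
Ratio (log2, high over normal glucose) of the measured genes of the 7 lists (1 point per gene, by its brightest probe; black bars are list medians, dotted lines mark 2-fold, vertical scatter within a list has no meaning). The 7 endothelin and angiotensin genes lie between -0.32 and 0.24, and the only point past 2-fold is Mme, at 1.28 by its brightest probe, where its other probe gave -0.46.

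The labelled cell type was set against marker lists. Of 10 pericyte markers 9 were well above background on both arrays, with a median log2 ratio of -0.10; Pdgfrb read 17471 in normal and 18161 in high glucose, Cspg4 9453 and 7760, and Rgs5 93.9 and 133, a log2 ratio of 0.58 beside dim neighbours shifted by 0.44, and only Kcnj8 was not well above background. All 7 smooth muscle and all 7 fibroblast markers were measured as well, so these lists do not separate pericytes from either cell type. All 7 smooth muscle markers were higher in high glucose, with a median log2 ratio of 0.11, but 5 were higher and 2 lower with median centring, at a median of 0.05, and likewise with quantile normalization, at 0.13. The fibroblast list had a median log2 ratio of -0.07, with 6 of its 7 genes below 0, and -0.13 with all 7 below 0 after median centring. The part of such differences in the endothelin and angiotensin values was not tested. The named genes among them were Myocd, at a log2 ratio of 0.81 from signals of 33.0 and 54.7, Abcc9 at -0.45, Fap at -0.37 and Dcn at -0.18. Endothelial cells are the usual main source of endothelin 1, and 3 of 8 endothelial markers were measured. Their median log2 ratio after scaling was 0.02. Before scaling between the arrays, their signals summed to 7538 in normal and 7214 in high glucose. Nearly all of this sum was Kdr, a VEGF receptor, at 7379 and 7075 by its brightest probe, a log2 ratio of 0.02; its other probe had one of -0.27 ± 0.03 (SD, n = 10 spots). The remaining genes of this list, Cdh5, Tek, Cldn5, Erg and Emcn, were well above background on neither array. Vwf was measured but dim, at 74.0 on the normal and 48.5 on the high glucose array, and its log2 ratio was -0.53. Pecam1 had a log2 ratio of 0.12 ± 1.10 (SD, n = 2 spots). Of the 6 immune markers 4 were measured and 1 had no named probe. The measured ones were led by Ptprc at 0.20, from dim signals of 39.1 and 42.5, and Csf1r at 0.12. All 4 were higher in high glucose, but 2 were higher and 2 lower from median pixels and with normexp. Median pixels gave -0.19 for Ptprc, and the other Csf1r probes had log2 ratios of 0.03 and -0.13. Of the Schwann cell markers 4 of 5 were measured, with S100b at -0.06. The part of other cells in the dim endothelin and angiotensin signals was not tested.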

How the data were processed

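Both arrays are Agilent 1-colour Cy3 scans. Per the file headers, the authors deposited linear intensity values made with Feature Extraction 11.5.1.1, background-subtracted and detrended within the array, with small positive surrogates for low readings and no scaling between arrays. The submitters' processing notes name version 9.3.2.1 instead. The deposited value table matched the mean processed signal over spots for 99.7% of 55681 probes (relative tolerance 0.001), with medians of 49.6 in normal and 48.9 in high glucose.

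Of the spots, 59305 were for genes and 3671, for controls, were left out, as were spots with an outlier flag. The mean log2 signal of a probe was taken less the array's 75th percentile, 774 in normal and 732 in high glucose. Probes were named through unversioned RefSeq accessions and the gene table of assembly GRCm38.p6; 27503 probes had 1 symbol and 28178 none. The array design names mm9, so no coordinates are given. A gene stands for its probe of highest mean level and counts as measured when at least 0.5 of its spots were well above background on each array, none saturated. Neighbours are gene spots within 2 rows and columns that 1 or both arrays did not detect. Their shift compares their median pixels (log2, high over normal, median), without background subtraction, with those of all such spots.

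Members and gene lists were chosen with earlier results of these data known. Named genes are all members and, in each list, up to 4 measured genes past 1.5-fold or otherwise the 2 with the largest ratio, with Pdgfrb, Cspg4 and Rgs5. Other list genes given with values were chosen after those were seen. Some list genes, 1 of them taken by this rule, are not reported here. The counting steps were tested on simulated data. Python 3.11.15, pandas 2.3.3 and limma 3.58.1 (normexp) were used. Precision is limited by the number of arrays, 1 per condition. No sequence is shown, since probe sequences are not used here.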

Additional observations from a re-analysis of the deposited data

How the results depend on the processing

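Of 11 alternatives, 10 give a ratio, and over the 7 measured members these made 70 ratios, of which 66 stayed within the SD of repeat spots of the reported value and 4 moved further: Ednra and Ece1 with median centring, Ednra and Ace with normexp on median pixel signals. The count of 66 includes ratios that could not move. The looser detection, no filter and the median over probes leave a member with 1 measured probe unchanged. The deposited value table and keeping flagged spots nearly repeat the reported ratios. The count of 7 members measured on both arrays was 8 with the looser detection by positive and significant signal and 9 with no filter on dim probes. The count of members past 2-fold was 0; it was 1, Agt, with the looser detection and likewise 1 with no filter, and stayed at 0 under the other 9. For all measured genes that count was 128, and 559 with the looser detection, 1270 with no filter, 394 at 1.5-fold and 38 with normexp, whose offset of 50 shrinks the ratios of dim genes by its construction. The log2 ratio of Agt was between 1.23 and 1.30 under 5 alternatives, 0.76 from median pixels and 0.38 with normexp. The 1 gene past 2-fold among further endothelin pathway genes, Mme, no longer passed with the median over probes or with normexp, its brighter probe giving 1.00 there. Normexp on mean spot signals was planned and not run, since the files used here hold no such column; normexp on median pixels was chosen after seeing the data. No paired analysis was possible because each condition has 1 array.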
